A study of Mus musculus with 9 samples.

Results

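Lenses of mouse embryos that lacked both *Mafg* and *Mafk* were compared with lenses that lacked *Mafg* and kept 1 *Mafk* allele, which leaves the loss of the remaining *Mafk* allele as the labelled difference. Genes were taken if they carried a symbol and if 2 or more of the 6 libraries compared had a value of 1 or higher, and 14402 of the 15820 entries with a symbol (22013 entries in all) met this rule. RNA was sequenced from whole lenses at embryonic stage E16.5 of mice on an ICR background, 8 pooled lenses for each library and 3 libraries for each group. Compound KO lenses were *Mafg*-/-:*Mafk*+/- and double KO lenses were *Mafg*-/-:*Mafk*-/-, so *Mafg* was lost in both groups. Control lenses, *Mafg*+/-:*Mafk*+/-, carried 1 knockout allele of each gene and are shown beside the 2 groups without entering the main test. They enter only where a fit of all 9 libraries is named. The knockout alleles are germline alleles, so every tissue of the embryo carried them, and crosses of *Mafg*+/-:*Mafk*+/- with *Mafg*+/-:*Mafk*-/- mice gave the embryos. How many embryos or litters stand behind a library is not given in the sources used here, so p-values measure the spread between libraries, which may be partly technical.

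*Mafg* and *Mafk* are small Maf proteins, bZIP transcription factors that hold a DNA-binding and dimerisation domain and no activation domain. They act as the obligate partners of CNC factors such as *Nfe2l2* (Nrf2), which activate genes through antioxidant response elements, and of *Bach1* and *Bach2*, which repress genes at the same kind of element until heme releases *Bach1*. As homodimers they repress. *Mafg*, *Mafk* and *Maff* can stand in for each other, and for this reason the second gene is removed on top of the first. In the lens, a tissue of a single epithelial layer and of fiber cells filled with crystallins, mice short of small Maf proteins can develop defects, cataract among them.

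The values are the authors' normalized CPM, counts relative to the library total that were scaled by 1 factor for each library. Differences are double KO minus compound KO on the log2(value + 1) scale from limma, with a standard error (SE) and two-sided p-values, and the pseudocount of 1 understates the change of low genes. A gene was called where the Benjamini-Hochberg adjusted p did not exceed 0.05 and the difference reached 1.5-fold. Where the unadjusted p met these limits, the gene is described as passing the unadjusted threshold. The number of reads per library is unknown. The normalized values added up to between 728036 and 1022858 in compound KO libraries and between 977149 and 1081318 in double KO libraries, and these totals follow from the scaling.

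The deleted genes followed the labels. *Mafk* (chromosome 5, 139776804 to 139788408 of GRCm39) read 4.3, 5.3 and 4.8 in the compound KO libraries, 0.6, 0.0 and 0.3 in the double KO libraries and 5.2, 6.3 and 5.6 in the control libraries. The double KO libraries were thus all below the compound KO and control libraries, and the compound KO libraries, with 1 allele as in the controls, overlapped the controls. The mean of 4.8 ± 0.5 (SD, n = 3) in compound KO lenses was 16-fold that of double KO lenses at 0.3 ± 0.3, a log2 difference of −2.18 ± 0.21 (SE) with an unadjusted p of 6.6e-05 and an adjusted p of 0.118 in limma. In one fit of all 9 libraries *Mafk* was called, with an adjusted p of 0.0169. *Mafg* (chromosome 11, 120515942 to 120524530) read 10.1, 21.0 and 24.1 in compound KO libraries and 24.6, 21.2 and 26.2 in double KO libraries, against 112.9 to 134.5 in controls. Both knockout groups lay below every control library, and they overlapped each other (log2 difference 0.44 ± 0.32, adjusted p = 0.665). *Maff*, the third small Maf gene, read 3.5 to 4.3 in compound KO and 4.1 to 5.2 in double KO libraries, with overlap between the groups (log2 difference 0.24 ± 0.16).

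**Figure D1:**
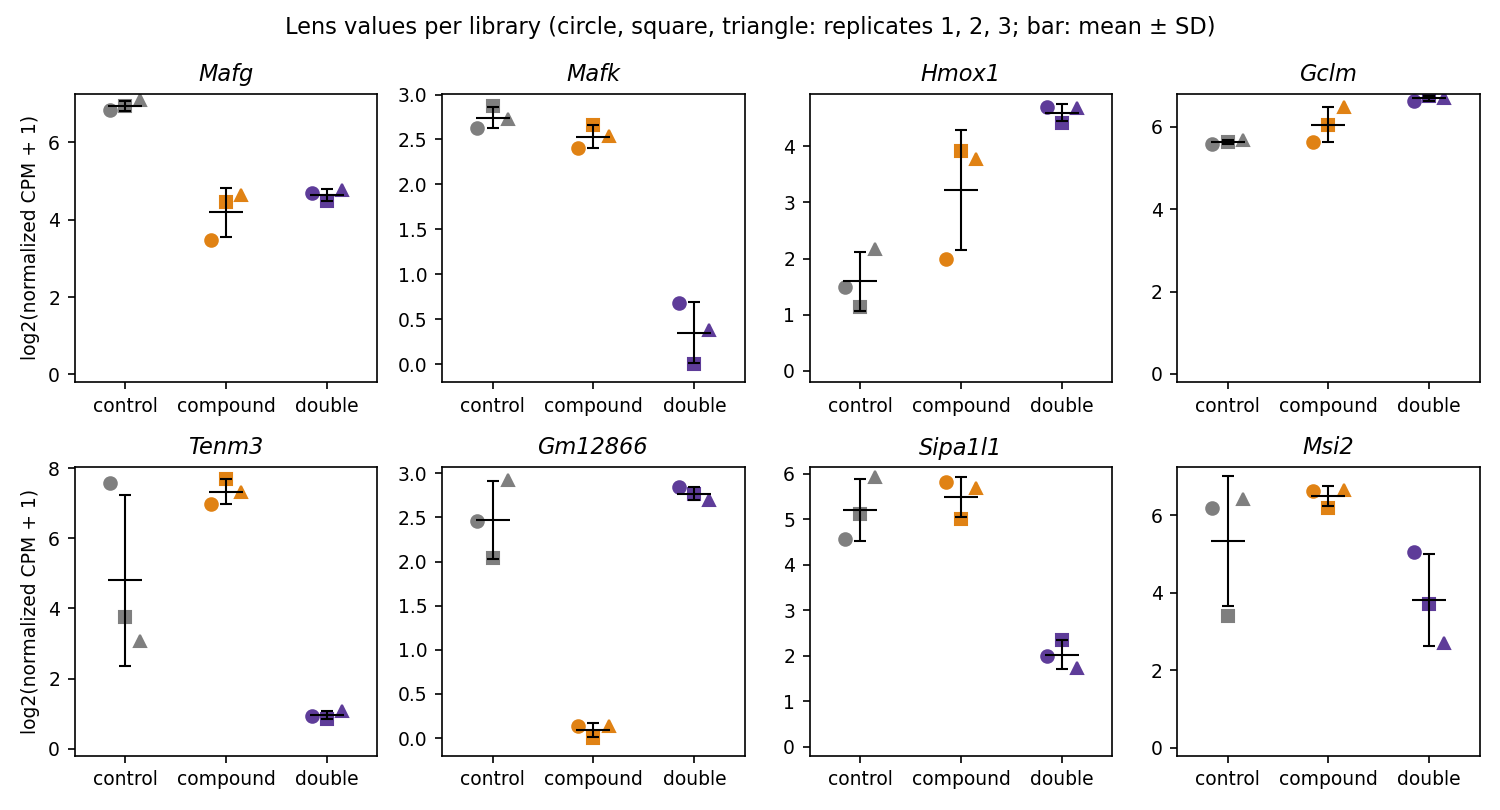
Values of 8 genes in each of the 9 libraries as log2(normalized CPM + 1), with the mean and SD of each group; each panel has its own scale. *Mafk* fell to near 0 in double KO lenses, and *Mafg* was low in both knockout groups. Among these 8 genes the controls spread most for *Tenm3* and *Msi2*.

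The libraries of the groups as wholes did not separate by more than other splits. The mean distance between compound KO and double KO libraries on the log2 scale was 91.9, against 87.1 within the groups. This difference of 4.74 was the second highest of the 10 ways to split the 6 libraries into groups of 3 (exact permutation test, one-sided, p = 0.2, with 0.1 the smallest p possible). Compound KO replicate 1 stood at a mean distance of 111 from the other libraries of its group, while double KO libraries stood at 73.9 to 75.7 from theirs.

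**Figure D2:**
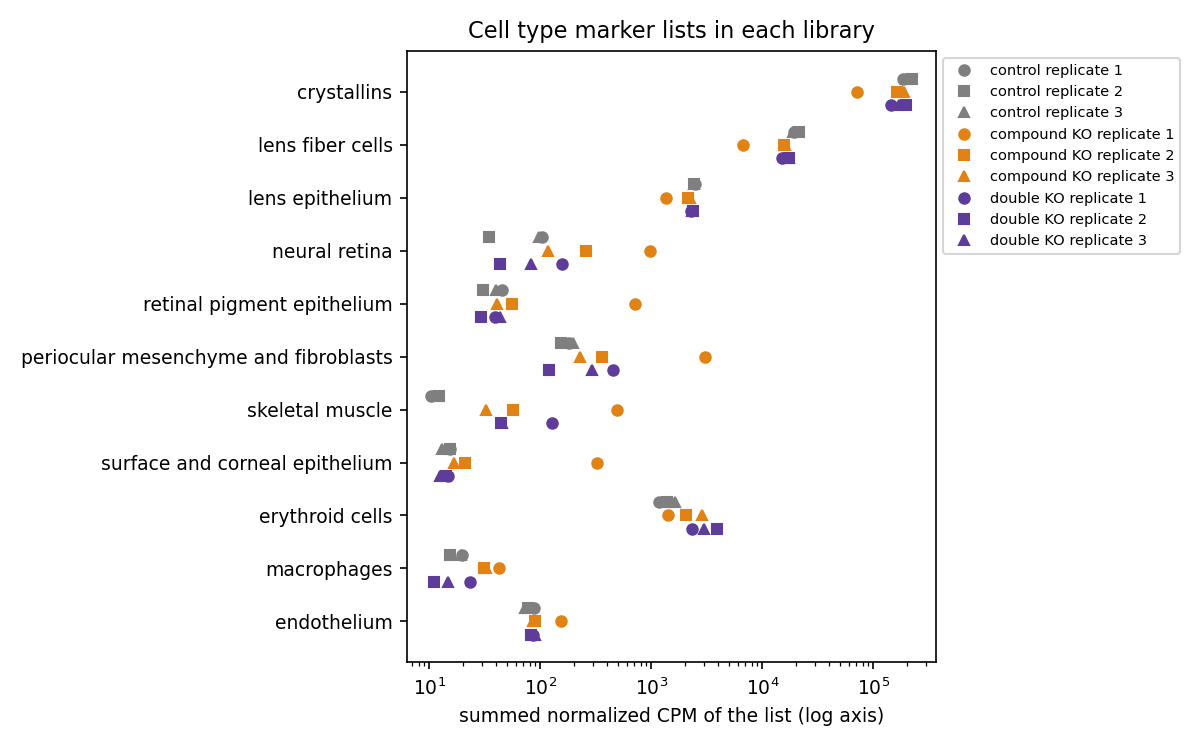
Summed normalized CPM of cell type marker lists in each library, on a log axis; colours give the group and symbols the replicate. Compound KO replicate 1 sits apart with low crystallins and high markers of retina, pigment epithelium, mesenchyme, muscle and surface epithelium. The other compound KO libraries lie nearer to the double KO libraries, though above all of them for macrophages and surface epithelium, for example.

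Crystallins and fiber cell genes, the defining genes of the lens, had the highest sums of all marker lists in all 9 libraries. Crystallins added up to 70742 in compound KO replicate 1, to 163807 and 188592 in the other compound KO libraries, and to between 144647 and 196535 in double KO libraries. Compound KO replicate 1 also held 709 of pigment epithelium markers, where the other compound KO libraries held 56.1 and 41.0 and the double KO libraries 29.0 to 43.1. For neural retina markers it held 971, against 258 and 117 in its group and 43.0 to 157 in double KO libraries. For mesenchyme and fibroblast markers it held 3060, against 360 and 229 in its group and 119 to 454 in double KO libraries. Their part in the differences between the groups was not tested, and many gene lists and named genes are therefore given with and without compound KO replicate 1. In whole lenses, fewer cells of a type and less RNA per cell cannot be told apart. Nothing in the labels names a batch.

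Across all genes, few differences were larger than the spread between libraries. After adjustment 2 genes (0.0139% of the 14402 tested) were called, *Tenm3* lower and *Gm12866* higher in double KO lenses. Neither had a value of at least 1 in all 6 libraries, so each entered the test through the group where it was high. With that value required in all 6 libraries, 0 genes were called in limma. At the unadjusted threshold 123 genes (0.854%) were higher and 317 (2.2%) were lower. With any fold difference, 701 genes (4.87%) had an unadjusted p of at most 0.05, close to the share that this threshold alone would give. Of the 440 genes at the unadjusted threshold, 388 did not overlap between the groups, against 15.6% of all genes tested. Threshold and overlap rest on the same 6 values, so this high share follows largely from the selection. Scaling by library size in place of the authors' factors moved the median difference of all genes from −0.01 to −0.17 and the split from 123 higher and 317 lower to 69 higher and 333 lower.

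Without compound KO replicate 1, 122 genes (0.847%) were higher and 204 (1.42%) lower, and 69 of the 123 higher and 139 of the 317 lower genes remained among them. In 246 of the 317 lower genes, this library was the highest of its group, and in 68 of the 123 higher genes it was the lowest. On the log2 scale the control mean was nearer to the double KO mean than to the compound KO mean in 260 of the 317 lower and 63 of the 123 higher genes, against 68.2% of all genes tested.

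**Figure D3:**
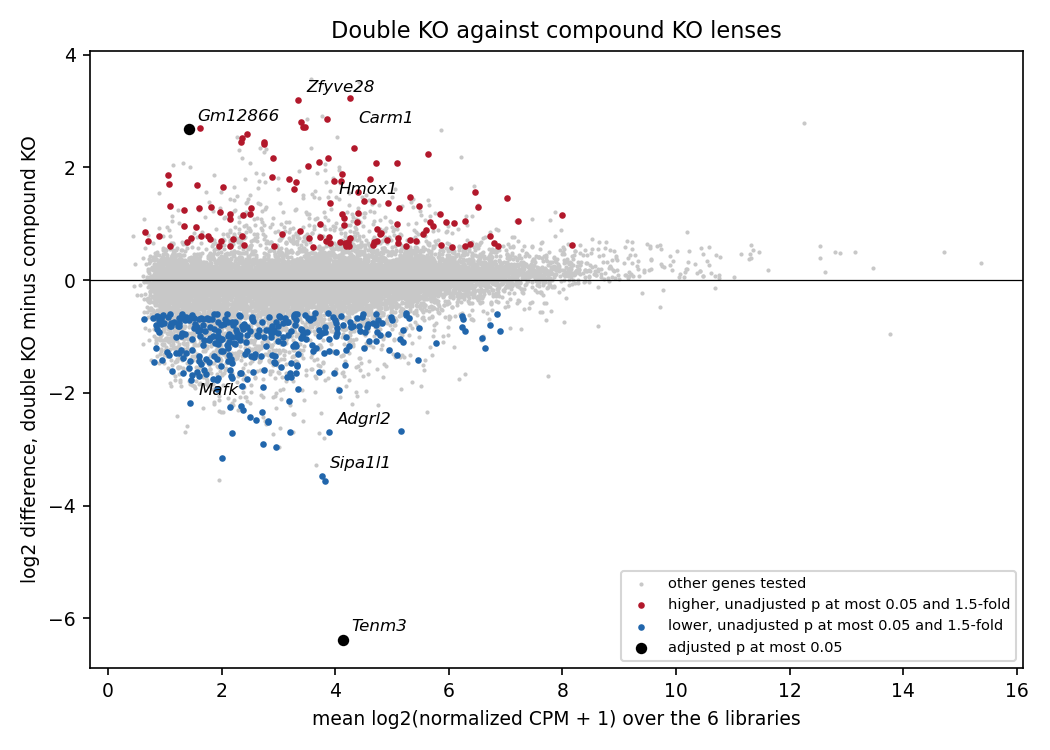
Log2 difference (double KO minus compound KO) against the mean level of each of the 14402 genes tested. Red and blue points pass the unadjusted threshold, black points the adjusted one. *Tenm3* and *Gm12866* are the 2 black points, and lower genes outnumber higher ones.

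*Tenm3* encodes a teneurin, a transmembrane protein that joins neurons at synapses through latrophilins. It lies on chromosome 8 at 48678708 to 49296986 of GRCm39. It read 124.8, 205.5 and 158.4 in compound KO libraries and 0.9, 0.8 and 1.1 in double KO libraries. The groups did not overlap, and the ratio of means was 175-fold (log2 difference −6.38 ± 0.20, limma adjusted p = 0.00163). The control libraries read 191.6, 12.5 and 7.4, so 1 of them lay within the range of the compound KO libraries and the other two lay between the groups. In one fit of all 9 libraries the adjusted p was 0.348.

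*Gm12866*, a predicted gene on chromosome 4 at 118911987 to 118929909, read 0.1, 0.0 and 0.1 in compound KO libraries and 6.2, 5.8 and 5.5 in double KO libraries (log2 difference 2.68 ± 0.13, limma adjusted p = 0.0105). The control libraries read 4.5, 3.1 and 6.6. The double KO libraries thus lay at the control level, and the compound KO libraries lay near 0. Leaving out 1 library at a time gave an adjusted p of 0.0246 to 0.133 for *Gm12866* and of 0.00489 to 0.0381 for *Tenm3*.

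*Tenm3* belongs to a family of 7 teneurins and latrophilins, receptor pairs of cell adhesion, all of which were tested. Of these 7, 2 (*Tenm3* and *Adgrl2*) were lower at the unadjusted threshold, with or without compound KO replicate 1, where 2.2% of all genes were, and 5 did not overlap between the groups, where 15.6% of all genes did not. The list was written with the result for *Tenm3* known. The median log2 difference was −1.12, and −0.53 without compound KO replicate 1, against −0.01 over all genes. Neural retina markers also moved down, with a median of −1.70 over 12 genes, and −0.97 without that library. Their part in the teneurin and latrophilin values was not tested. *Adgrl2*, a latrophilin, read 42.6, 36.9 and 31.7 in compound KO and 2.8, 9.0 and 4.2 in double KO libraries, with controls at 3.2, 2.5 and 16.4 (log2 difference −2.70 ± 0.37, adjusted p = 0.329). The double KO libraries were all below the compound KO libraries and within the range of the controls. *Tenm4* read 62.4 to 67.6 in compound KO and 46.9 to 60.8 in double KO libraries, without overlap, at a log2 difference of −0.28 ± 0.11. *Tenm2* varied from 0.1 to 36.7 within the double KO group and from 0.3 to 2.8 within the compound KO group. *Adgrl3*, another latrophilin, read 27.7, 7.6 and 6.5 in compound KO and 3.8 to 5.0 in double KO libraries, and *Tenm1* read 7.9, 2.4 and 2.1 against 0.6 to 2.0. The differences of *Adgrl3* and *Tenm1*, −1.14 and −1.12, became −0.53 and −0.64 without compound KO replicate 1.

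By a rule on fold, level and overlap, the 12 lower genes were *Tenm3*, *Myo7b*, *Sipa1l1*, *Metrn*, *Ptgds*, *Wdfy3*, *Adgrl2*, *Msi2*, *Fbxw7*, *Pde1b*, *Map3k12* and *Cbx3-ps6*. *Sipa1l1*, a GTPase activator of Rap1 on chromosome 12, read 55.2, 31.0 and 50.4 in compound KO and 3.0, 4.1 and 2.3 in double KO libraries, with controls at 22.8, 33.7 and 60.4 (log2 difference −3.47 ± 0.28, unadjusted p = 2.17e-05, adjusted p = 0.104, and 0.0476 in one fit of all 9 libraries). Every control and compound KO library lay above every double KO library. *Msi2*, an RNA-binding protein of stem cells and progenitors, read 97.2, 72.4 and 100.3 in compound KO and 32.2, 12 and 5.5 in double KO libraries (log2 difference −2.67 ± 0.59, adjusted p = 0.665), and the controls at 72.6, 9.6 and 85.1 overlapped both. *Metrn*, a secreted neurotrophic factor, read 4.1, 48.2 and 39.8 in compound KO, 1.2 to 3.1 in double KO and 0.4 to 2.2 in control libraries. *Metrn* and *Ptgds*, a prostaglandin D synthase, were thus near the control level in double KO lenses. *Map3k12*, a kinase upstream of JNK, read 9.2 to 16.2 in compound KO, 0.1, 0.8 and 6.4 in double KO and 12.9 to 17.0 in control libraries (log2 difference −2.42 ± 0.72), and here the controls lay with the compound KO libraries. The others of these 12, *Myo7b*, an unconventional myosin, *Wdfy3*, *Fbxw7*, *Pde1b* and the pseudogene *Cbx3-ps6*, had log2 differences of −3.56, −2.71, −2.51, −2.48 and −2.33. The adjusted p of each of these 5 genes was 0.665.

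The 12 higher genes by the same rule were *Carm1*, *Zfyve28*, *Pxdn*, *Eya3*, *Tsc2*, *Xrcc3*, *Inf2*, *Slc35b2*, *Klhl22*, *Zfp131*, *Cherp* and *Qk*. *Zfyve28*, an endosomal protein that limits receptor signalling, read 1.7, 3.9 and 1.9 in compound KO and 30.2, 23.5 and 37.2 in double KO libraries, with controls at 14.2, 2.1 and 2.7. The groups did not overlap, and the ratio of means was 12.1-fold (log2 difference 3.19 ± 0.29, unadjusted p = 4.87e-05, adjusted p = 0.117). *Carm1*, an arginine methyltransferase, read 1.0, 3.0 and 29.8 in compound KO and 50.3 to 68.6 in double KO libraries, and its controls read 2.0, 64.8 and 1.6. *Eya3*, a phosphatase and transcriptional cofactor of eye and other tissues, read 2.4 to 4.2 in compound KO and 16.3 to 46.1 in double KO libraries, and its controls spread from 3.4 to 33.6. *Qk*, an RNA-binding protein that controls splicing, read 12.5 to 18.0 against 48.3 to 96.7 (log2 difference 2.08 ± 0.28, adjusted p = 0.306), with controls at 83.6, 20.7 and 20.1. The differences of *Tsc2*, *Inf2*, *Slc35b2*, *Klhl22*, *Zfp131* and *Cherp* ran from 2.16 (*Cherp*) to 2.52 (*Tsc2*), each with an adjusted p of 0.665.

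When compound KO replicate 1 was left out, 4 of the 12 higher genes (*Pxdn*, *Klhl22*, *Zfp131* and *Cherp*) and 3 of the 12 lower genes (*Myo7b*, *Pde1b* and *Cbx3-ps6*) no longer passed the unadjusted threshold.

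For many of the genes with a high fold, the control libraries disagreed among themselves. In 8 of the 12 higher and 5 of the 12 lower genes, the highest control library was more than 5-fold the lowest (after adding 1 to each value), as it was in 17.1% of the 123 higher, 3.47% of the 317 lower and 2.84% of all genes tested. For several of these genes, an entry of the table that carries no symbol ran in the opposite direction over the 9 libraries. Such entries were searched after the values had been seen, by taking for each of 1859 varying genes the closest of 2875 varying entries without a symbol. Varying means a lowest value of at most 0.25 of the highest over the 9 libraries, and the genes also had a range of at least 10. In 197 of the 1859 genes (10.6%), and in 12 of the 172 of them that were among the 440 (6.98%), the sum of gene and entry varied by at most 0.25 of the SD of the gene. This limit was also set after the values had been seen: a limit of 0.2 gave 91 genes, 6 of them among the 440, and leaves out *Msi2* and *Xrcc3*. A search over this many entries can return close matches by its size alone.

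The closest opposite entry of *Sipa1l1* read 5.4, 28.9 and 15 in compound KO, 59.7, 59.6 and 62.5 in double KO and 39.1, 28.4 and 1.2 in control libraries. The sum of both ran from 59.9 to 65.4 over all 9 libraries, with 62.0 ± 2.99 (SD, n = 3) in compound KO and 63.7 ± 1.05 in double KO lenses. *Msi2*, *Cc2d2a*, a protein of the ciliary transition zone, and *Xrcc3*, a DNA repair protein, had such an entry too, and the log2 difference of their sum was 0.02, 0.14 and 0.22. For *Tenm3* the closest entry did not meet the rule. It read 64.2, 50.1 and 129.3 in compound KO and 296.6, 266.7 and 280.3 in double KO libraries, and the sum differed by 0.23. A small difference of a sum follows from the way these entries were chosen. Whether they hold reads of the same genes was not tested, since they have no name or position, and for these genes a change of the named entry and of the gene cannot be told apart.

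**Figure D4:**
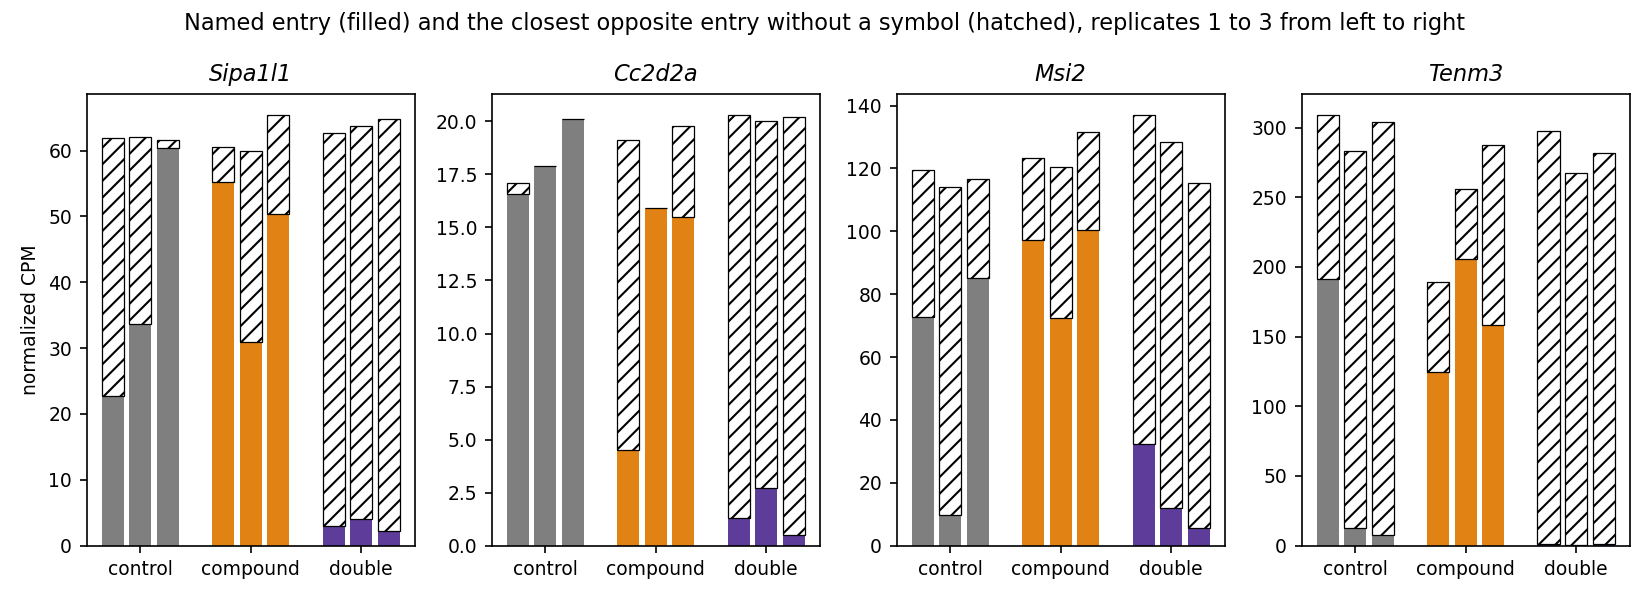
Normalized CPM of 4 lower genes (filled bars) with the closest opposite entry without a symbol (hatched bars) stacked on top, in replicates 1 to 3 of each group. The filled part shrinks in double KO libraries, and the full height of the stack for *Sipa1l1* stays between 59.9 and 65.4 in all 9 libraries.

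The heme and iron genes, whose classical regulator is *Bach1* with a small Maf partner, mostly had positive differences. Of 14 genes tested 13 had a difference above 0 (49.2% of all genes did), 2 (*Hmox1* and *Ncoa4*) were higher at the unadjusted threshold (0.854% of all genes) and 4 did not overlap (15.6% of all genes). Red blood cell markers moved the same way, with a difference above 0 in 9 of 9 genes and a median of 0.65, and their part in the heme and iron values was not tested. The direction was not particular to these lists: 66 of 74 cytosolic ribosomal, 25 of 31 proteasome and 14 of 15 crystallin genes were above 0. Other lists ran the other way, such as the cell cycle list with 4 of 32 above 0. The median difference of the heme and iron genes was 0.16, and 0.10 without compound KO replicate 1. Under scaling by library size the median was −0.01, with the median of all genes at −0.17. *Hmox1*, the heme oxygenase that breaks down heme, read 3.0, 14.1 and 12.6 in compound KO and 24.9, 20.4 and 24.7 in double KO libraries, with controls at 1.8, 1.2 and 3.5. The group means stepped from 2.17 ± 1.19 (SD, n = 3) in control over 9.9 ± 6.02 in compound KO to 23.3 ± 2.54 in double KO lenses, and compound KO replicate 1 was at the control level. The ratio of double KO to compound KO means was 2.36-fold (log2 difference 1.37 ± 0.53, unadjusted p = 0.0422, adjusted p = 0.665), and without compound KO replicate 1 the difference was 0.76 with an unadjusted p of 0.00219.

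*Slc48a1*, which carries heme out of the endosome, read 62.2, 146.1 and 143.9 in compound KO and 164.5, 166.5 and 163.1 in double KO libraries, with controls at 27.1 to 30.5. The double KO libraries were all above the compound KO libraries, by less than either group was above the controls (log2 difference 0.59 ± 0.34, unadjusted p = 0.14). That difference was 0.18 without compound KO replicate 1. The ferritin chains that store iron behaved alike in direction: *Ftl1* read 749.3 to 1697.3 in compound KO and 1499.0 to 1853.7 in double KO libraries, and *Fth1* read 256.1 to 427.6 and 463.0 to 497.9. Of these, *Fth1* did not overlap between the groups and *Ftl1* did. The differences of *Ftl1* and *Fth1*, 0.46 and 0.44 with all 6 libraries, were 0.11 and 0.19 without compound KO replicate 1. *Ncoa4*, the receptor that delivers ferritin to the lysosome, read 19.0 to 25.1 in compound KO and 28.4 to 46.5 in double KO libraries (log2 difference 0.71 ± 0.21, unadjusted p = 0.0155), with controls at 27.0 to 47.7. The double KO level of *Ncoa4* was thus that of the controls.

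Glutathione, thioredoxin and quinone defence genes, the classical targets of Nrf2, showed no common direction. Of 24 tested 15 had a positive difference, 2 were higher (*Gclm* and *Gpx1*, where 0.854% of all genes were) and the median was 0.05. With compound KO replicate 1 left out, none of the 24 passed in limma, since the difference of *Gclm* came to 0.43, below 1.5-fold, and the unadjusted p of *Gpx1* to 0.0923. *Gclm*, the modifier subunit of glutamate-cysteine ligase, read 48.6, 65.4 and 88.1 in compound KO, 98.2, 106.8 and 103.0 in double KO and 47.2 to 50.3 in control libraries. The double KO libraries lay above all others (log2 difference 0.64 ± 0.21, unadjusted p = 0.0259, adjusted p = 0.665). *Gpx1*, a peroxidase that uses glutathione, read 31.7 to 74.4 and 71.7 to 102.0, with overlap, and its controls read 60.9 to 109.5.

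The antioxidant response element core TGACNNNGC was looked for on both strands of RefSeq promoter windows of GRCm38.p6 (250 bases before to 50 after a start), in which 12.4% of 32851 windows hold it, since small Maf heterodimers bind sites of this kind. Of the 20 glutathione, thioredoxin and quinone genes with a window 8 held the core (40%, against 14% of 27025 genes with a window), and of 29 windows of these genes 27.6% did. Of 9 heme and iron genes with a window 2 held it, in 11.8% of 17 windows. The half-site TGCTGA of the Maf recognition element, searched the same way, was in 17.2% of the glutathione and 17.6% of the heme windows, against 19.5% of all windows. The windows around the core in *Mafk* and in 2 of the genes above are shown with the core, read on either strand, in capitals and were placed in GRCm39 by exact match. Each lies on the plus strand, at chr5:139777258-139777306 for *Mafk*, chr3:122039052-122039100 for *Gclm* and chr14:31887682-31887730 for *Ncoa4*.
Mafk: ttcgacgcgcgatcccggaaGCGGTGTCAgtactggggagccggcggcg
Gclm: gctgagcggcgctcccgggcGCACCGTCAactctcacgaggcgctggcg
Ncoa4: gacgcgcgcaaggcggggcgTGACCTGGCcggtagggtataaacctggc
A match is a description of letters. Counted from the RefSeq start that the window belongs to, the core starts 13 bases before it in *Mafk*, 134 in *Gclm* and 44 in *Ncoa4*. By the GENCODE gene positions used elsewhere here, the stretches of *Mafk* and *Ncoa4* lie inside the gene and that of *Gclm* lies before it. Whether a small Maf protein binds at these places was not tested. *Hmox1* and *Slc48a1* had no window in the set used.

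The partners of the small Maf proteins did not pass the test. Of 11 small Maf, CNC and Bach genes tested 1, *Mafk*, was lower at the unadjusted threshold and none was higher, and the median was 0.40, or 0.14 without compound KO replicate 1. *Nfe2l2* read 9.5 to 23.4 in compound KO and 21.3 to 25.7 in double KO libraries, and its repressor *Keap1* read 24.9 to 32.2 and 30 to 37.6. *Bach1* read 35.7, 21.2 and 20.1 in compound KO and 17.3 to 19.1 in double KO libraries, a difference of −0.41 ± 0.23 in which the groups did not overlap. This difference came to −0.16 without compound KO replicate 1. Maf, the large Maf factor that drives crystallin genes, read 363.6, 875.7 and 969.4 against 998.5 to 1127.1, and without compound KO replicate 1 the difference was 0.17.

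For most lens genes no difference beyond the spread was found. No crystallin (15 tested), fiber cell gene (17) or epithelial gene (12) passed the unadjusted threshold in limma, and the medians of 0.49, 0.41 and 0.45 came to 0.04, 0.02 and 0.11 without compound KO replicate 1. *Mip*, the main membrane water channel of fibers, read 3102.7, 8221.7 and 8496.7 in compound KO and 7835.2 to 8987.1 in double KO libraries. *Gja1*, the connexin of the epithelium, read 190.3 to 219.7 against 134.8 to 148.9, a log2 difference of −0.50 ± 0.09 without overlap (unadjusted p = 0.00145, adjusted p = 0.613), and it missed the 1.5-fold threshold. Its controls read 102.2 to 187.1 and overlapped both. *Prox1*, which drives cell cycle exit and elongation of fibers, read 201.4 to 247.9 in compound KO and 427.1, 402.2 and 260.6 in double KO libraries (log2 difference 0.62 ± 0.21, unadjusted p = 0.0278).

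Most genes of the cell cycle list had negative differences. Of 32 tested 4 had a difference above 0, 3 were lower (*Cdk1*, *Cdk6* and *E2f1*, where 2.2% of all genes were), 1 was higher (*Cdkn1c*, where 0.854% of all genes were), and the median of −0.37 became −0.10 without that library, when 1 gene was higher and none of the 32 lower in limma. *Cdk1*, the mitotic kinase, read 27.8, 11 and 27.4 in compound KO, 10.7, 9.3 and 8.3 in double KO and 20 to 24.8 in control libraries (log2 difference −1.04 ± 0.37, unadjusted p = 0.0317). *Cdkn1c*, the inhibitor p57 that stops the cycle in differentiating fibers, read 99.8, 284.8 and 167.2 in compound KO and 358.2, 429.0 and 349.6 in double KO libraries, with controls at 190.4 to 267.3. All double KO libraries were above all others (ratio of means 2.06-fold, log2 difference 1.16 ± 0.38, unadjusted p = 0.0227), and the difference without compound KO replicate 1 was 0.79 with an unadjusted p of 0.0286.

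Eph receptors and ephrins, which sort cells by contact, had a median of −0.80 over 19 genes, 2 of them lower (*Epha5* and *Ephb1*, where 2.2% of all genes were) and none higher. Without compound KO replicate 1 the median was −0.32 and 3 genes were lower (*Epha5*, *Epha4* and *Efna2*, where 1.42% of all genes were), and the unadjusted p of *Ephb1* was 0.0964. Neural retina markers moved the same way, with a negative difference in 12 of 12 genes and a median of −1.70, and their part in the Eph values was not tested. *Epha5* read 29.4, 4.9 and 4.2 in compound KO, 1.1, 1.5 and 2.6 in double KO and 2.5 to 3.8 in control libraries (log2 difference −1.87 ± 0.72). Without the compound KO library at 29.4 the difference was −1.06 with an unadjusted p of 0.0127. *Pxdn*, a peroxidase of the lens capsule, read 2.1 to 6.7 in compound KO and 6.9, 81.5 and 88.7 in double KO libraries, so that 2 of 3 double KO libraries carried the difference of 2.86 ± 1.02 and the third lay within the controls at 4.4 to 7.0. The unadjusted p of *Pxdn* was 0.0982 without compound KO replicate 1.

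Of the macrophage markers, several were lower in double KO lenses. All 8 tested had a negative difference, 4 were lower at the unadjusted threshold (*C1qa*, *C1qb*, *C1qc* and *Csf1r*, where 2.2% of all genes were) and 4 did not overlap (15.6% of all genes). In the fit without compound KO replicate 1, 2 were lower (*C1qa* and *Csf1r*), and the unadjusted p was 0.0581 for *C1qb* and 0.114 for *C1qc*. The list's median was −0.75, and −0.68 without that library. The sum of the list was 42.6, 31.2 and 32.6 in compound KO, 23.0, 10.9 and 14.7 in double KO and 15.2 to 19.6 in control libraries. *C1qa*, a chain of the complement factor C1q that macrophages make, read 4.8, 4.1 and 3.9 in compound KO, 2.1, 1.4 and 2.0 in double KO and 1.4 to 2.3 in control libraries (log2 difference −0.90 ± 0.17, unadjusted p = 0.00205, adjusted p = 0.665). *Csf1r*, the receptor macrophages need to survive, read 4.1 to 9.8, 1.1 to 2.7 and 3.4 to 4.3. The double KO libraries were the lowest for *Csf1r*, whereas for *C1qa* they were at the control level.

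Markers of red blood cells had a positive difference in all 9 genes tested, with a median of 0.65, and 0.45 without compound KO replicate 1, and none passed the unadjusted threshold in limma. The sum of this list was 1427 to 2841 in compound KO, 2341 to 3883 in double KO and 1172 to 1641 in control libraries. Neural retina markers had a negative difference in all 12 genes tested, 1 of them, *Elavl3*, was lower at the unadjusted threshold, and the median was −1.70. Without compound KO replicate 1 the median was −0.97 and the unadjusted p of *Elavl3* was 0.126. *Elavl3*, a neuronal RNA-binding protein, read 72.2, 22.5 and 6.3 in compound KO and 10.1, 0.7 and 1.5 in double KO libraries. Of 5 pigment epithelium markers tested none passed with all 6 libraries in limma and 3 did not overlap between the groups. When compound KO replicate 1 was left out, these 3, *Tyr*, *Tyrp1* and *Dct*, were lower at the unadjusted threshold, with differences of −0.60, −0.75 and −0.93 (unadjusted p = 0.0231, 0.0254 and 0.0233). *Tyr*, the tyrosinase, read 44.7, 1.9 and 1.9 in compound KO and 0.7 to 1.3 in double KO libraries, and *Dct*, the dopachrome tautomerase, read 159.3, 6.8 and 7.4 against 2.2 to 4.8. *Myh3*, an embryonic muscle myosin, read 116.4, 3.4 and 2.3 in compound KO and 21.6, 3.6 and 3.6 in double KO libraries, so its difference of −0.61 became 1.04 without compound KO replicate 1.

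**Figure D5:**
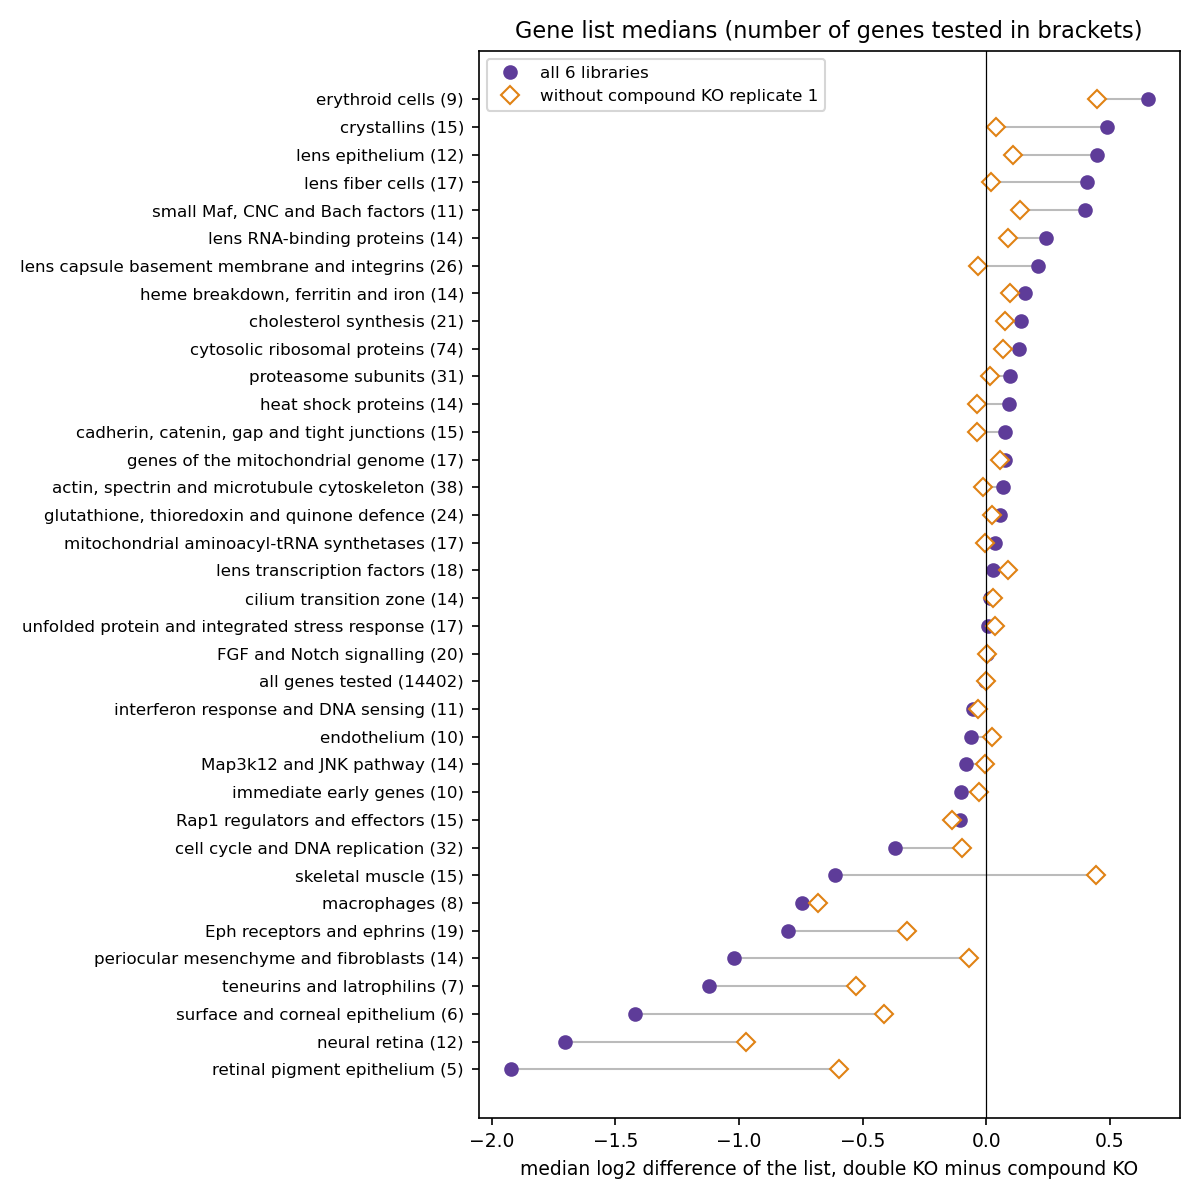
Median log2 difference of each gene list, with all 6 libraries (filled) and without compound KO replicate 1 (open diamonds); the number of genes tested stands in brackets. The medians of lens, mesenchyme and muscle lists move close to or past 0 without that library, and that of macrophages stays at −0.68.

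In the remaining lists 0 to 2 genes passed the unadjusted threshold in either direction, where 0.854% of all genes were higher and 2.2% lower. The interferon list had 2 lower (*Ifit3* and *Irf9*) of 11 and the cilium list 2 lower (*Cc2d2a* and *Tmem67*) of 14. No gene of the unfolded protein response (17 tested), the proteasome (31) or the mitochondrial aminoacyl-tRNA synthetases (17) passed in limma. Junction genes had 1 lower (*Cldn1*) of 15, JNK pathway genes 1 lower (*Map3k12*) of 14 and cholesterol genes 1 higher (*Msmo1*) of 21. FGF and Notch genes had 1 lower (*Dll1*) of 20, heat shock genes 1 lower (*Hspb8*) of 14 and surface epithelium markers 1 lower (*Epcam*) of 6. In the fit without compound KO replicate 1, *Cc2d2a* and *Map3k12* still passed, and none of the genes tested in the interferon, junction, cholesterol, FGF and Notch, heat shock and surface epithelium lists did in limma. Cytosolic ribosomal protein genes had a median of 0.13 over 74 genes, with 1 higher. In lists with no passing gene, the 2 members with the highest mean had log2 differences of 0.30 and 0.50 (*Cryba1* and *Crybb1*), 0.50 and 0.53 (*Mip* and *Lim2*), 0.52 and −0.50 (*Sfrp1* and *Gja1*), −0.40 and 0.37 (*Calr* and *Hspa5*), 0.23 and 0.31 (*Psmd1* and *Psmc5*), and −1.81 and 0.58 (*Lars2* and *Iars2*). For the immediate early genes *Jun* and *Btg2* these were −0.05 and −0.70, for the vessel genes *Kdr* and *Egfl7* −1.14 and 0.32, and for the globins *Hbb-bs* and *Hba-a2* 0.60 and 0.67. Leaving out compound KO replicate 1 brought *Lars2* to −0.91, *Btg2* to −0.29 and *Kdr* to −0.37.

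Of the 11 candidates that the study chose on these libraries, which are no independent evidence, 3 were higher (*Cdkn1c*, *Hmox1* and *Pxdn*) and 4 lower (*Cdk1*, *Epha5*, *Map3k12* and *Sipa1l1*) between the knockout groups, and 0 were called after adjustment in limma. Without compound KO replicate 1 these counts were 2 and 3. The study took its candidates from double KO lenses compared with controls, a different comparison from the one here. It gave priority to genes altered more in double KO than in compound KO lenses. It also measured candidates by RT-qPCR, and *Cdkn1c* as protein, which the values here do not repeat. *Lars2*, a mitochondrial leucyl-tRNA synthetase, read 266.9, 20.2 and 78.6 in compound KO, 19.1 to 23.4 in double KO and 201.9 to 304.4 in control libraries, so the compound KO group spread from the double KO to the control level. *Trex1*, a DNA exonuclease, read 3.4 to 7.3 in compound KO and 6.1 to 6.9 in double KO libraries, against 25.3 to 45.9 in controls. Both knockout groups of *Trex1* were below every control library and overlapped each other. *Camsap1*, a protein of microtubule minus ends, read 2.7, 0.1 and 28.9 in compound KO and 20.2 to 51.9 in double KO libraries, with controls at 0.3 to 1.8, and the groups overlapped. *Col3a1*, a fibrillar collagen, read 660.5, 40.3 and 18.8 in compound KO and 5.2 to 57.7 in double KO libraries, with controls at 4.7 to 18.2. Its difference of −1.59 ± 1.56 between the knockout groups became −0.08 without compound KO replicate 1.

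Some genes were steady within both knockout groups and differed between them without passing the adjustment. Chosen after their values were seen, they include *Anks3*, *Kat5* and an entry whose symbol the table shows as the date 8-Sep. The entry shown as 8-Sep read 94.1 to 114.3 in compound KO, 209.6 to 214.7 in double KO and 206.0 to 229.1 in control libraries (log2 difference 1.04 ± 0.09, adjusted p = 0.116, and 0.0154 in one fit of all 9 libraries), so the compound KO libraries stood alone. *Anks3*, a protein of cilia, read 3.5 to 5.5, 15.2 to 19.1 and 4.4 to 7.0 in compound KO, double KO and control libraries (log2 difference 1.74 ± 0.18, adjusted p = 0.134), so here the double KO libraries stood alone. *Kat5*, a histone acetyltransferase, read 5.0 to 6.9 and 1.0 to 1.3 (log2 difference −1.74 ± 0.17, adjusted p = 0.118), with controls at 1.2, 15.6 and 0.7.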

How the data were processed

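RNA of 8 pooled E16.5 lenses per library was sequenced in 9 libraries (3 control, 3 compound KO, 3 double KO), grouped by the genotype in the labels. Per the methods, the authors trimmed the strand-specific paired reads with Trimmomatic, aligned them to mm39 with HISAT2, derived transcript-level counts with StringTie and removed low entries in edgeR. Versions are not given in the sources used here. The deposited values are a signal, CPM that the authors normalized with 1 factor per library and rounded to 1 decimal. The depth is unknown, so no counting intervals are given.

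Values were compared with limma 3.58.1 in R 4.3.3 on log2(value + 1) with an intensity trend, over the 3 double KO and 3 compound KO libraries, two-sided, with Benjamini-Hochberg adjustment over the 14402 genes. Distances between libraries were compared by an exact permutation test. The test was checked on simulated data, which held no outlying library such as compound KO replicate 1. The members and lists (34) were chosen with earlier results of these data known, and marker lists were applied without a set test. Genes named are *Mafg*, *Mafk*, all called genes, the 12 highest and 12 lowest differences among genes that passed the unadjusted threshold with groups that do not overlap and a group mean of 10 or more (predicted genes left out), list members that passed, the 2 most abundant members of the other lists and the 11 candidates of the study. A few further genes are named after their values were seen, and a few results are not reported here. Positions are those of GENCODE vM39 on GRCm39, the build called mm39, where 14381 of 15803 symbols matched 1 gene. Older symbols were matched through RefSeq synonyms. The alternatives were library size and upper quartile scaling, other filters, a fit of all 9 libraries, a replicate block, a pseudocount of 0.1, summed symbols, no trend, no fold threshold and each library left out; testing entries without a symbol and adding opposite entries were chosen after seeing the data.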

Additional observations from a re-analysis of the deposited data

How the results depend on the processing

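Main counts were 2 genes called after adjustment, 123 higher and 317 lower at the unadjusted threshold. Library size scaling gave 69 higher, a value of at least 1 in all 6 libraries 0 called (107 higher and 239 lower at the unadjusted threshold in limma), one fit of all 9 libraries 5 called and 489 lower, a pseudocount of 0.1 1 called, and no fold change threshold 261 higher. The replicate block gave 0 called and 577 lower (167 higher), and same-numbered libraries correlated by 0.218, 0.109 and 0.003 after removal of group means, so the numbers were not taken as pairs. Leaving out 1 library at a time gave 1 to 6 called, 108 to 275 higher and 146 to 868 lower. The highest counts at the unadjusted threshold came without compound KO replicate 3, and the 6 called came without compound KO replicate 1. The separation of the libraries ran from −4.39 (without double KO replicate 2) to 18.9 (without compound KO replicate 3) and was −1.38 without double KO replicate 3. The causes were not tested.

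Of the named genes for which an opposite entry was added, 7 changed sign, to 0.23 for *Tenm3*, 0.041 for *Sipa1l1*, 0.018 for *Msi2*, 0.14 for *Cc2d2a*, −0.019 for *Cep120*, 0.022 for *Gli2* and 0.0021 for *Dis3*, and *Xrcc3* and *Ube3c* came to 0.22 and 0.087 with the sign kept.
Leaving out 1 library at a time gave −0.16 to 0.64 for *Cryba1*, −0.14 to 0.10 for *Jun*, −1.54 to 1.04 for *Myh3*, −1.51 to 0.48 for *Acta1*, −4.36 to 0.0034 for *Pmel* and −0.10 to 0.36 for *Trex1*. In 1617 of 1656 repeats over 112 genes the direction and the side of the adjusted threshold were those of the main value. In 14 the direction turned, in 16 a gene became called and in 9 a call was lost, of which 7 are of *Gm12866* and 2 of *Tenm3*. Only these 2 genes were called in the main fit, so for all others staying uncalled counted as agreement. Several settings, such as no trend or the replicate block, keep the log2 difference by construction. The 1617 are thus no measure of robustness. Precision is limited by 3 libraries a group and an unknown read depth.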

Other observations

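Several genes switched between libraries rather than between groups. *Cep120*, a centrosomal protein, read 0.0, 40.2 and 0.0 in compound KO, 40.6, 39.7 and 39.8 in double KO and 0.0, 43.7 and 3.9 in control libraries. *Ube3c*, a ubiquitin ligase, read 0.8, 74.0 and 0.9 in compound KO and 60.7 to 83.6 in double KO libraries, and *Dis3*, an exosome nuclease, read 20.3 to 23.2 in compound KO and 23.1, 0.0 and 0.0 in double KO libraries. With all 6 libraries none of these genes was called (limma adjusted p = 0.665 for each). Each was called when the 1 library that broke the pattern was left out. That library was singled out by its value, so such a call follows from the choice. Each of these genes also had an entry without a symbol with which it added up to a narrow range. The sums were 38.8 to 43.7 for *Cep120*, 72.9 to 87.7 for *Ube3c* and 19.5 to 23.5 for *Dis3*. These genes were picked after their values were seen.

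Without compound KO replicate 1, *Gna11*, a G protein subunit, was called: it read 58.3, 19.9 and 21.1 in compound KO, 59.8, 59.3 and 59.3 in double KO and 61.5 to 66.2 in control libraries. Its difference was 1.0 with all 6 libraries (adjusted p = 0.665 in limma) and 1.49 without that library (adjusted p = 0.0243 in limma). *Sohlh1*, a germ cell factor, read 0.0, 0.3 and 0.0 in compound KO, 2.8, 2.2 and 4.2 in double KO and 0.0 in every control library. It thus entered the test only through the double KO group, where its values were low. The limma adjusted p of *Sohlh1* was 0.239 over the 6 libraries and 0.0476 in one fit of all 9 libraries.

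Within 10 Mb of *Mafk*, 207 other genes were tested and 3 passed the unadjusted threshold (*Get4* and *Mtus2* lower, *Radil* higher), which is 1.45% against 3.12% of all genes with a position. Within 10 Mb of *Mafg*, 3 of 144 genes passed (2.08%). Of 5105 entries without a symbol that met the same minimum, 11 were called after adjustment, 90 were higher and 116 lower at the unadjusted threshold, in a fit that also held the genes with a symbol. What these entries hold was not tested.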
